A study of Mus musculus with 106 samples.

Results

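The 7 genes described here encode the main cannabinoid receptor of the brain and the enzymes that make and break down its lipid ligands: *Cnr1* (receptor), *Dagla*, *Daglb* and *Napepld* (synthesis), and *Mgll*, *Faah* and *Abhd6* (breakdown). They are listed genes, found in the count table by matching its Ensembl identifiers to symbols, and they are 7 of its 55401 mouse genes. All 7 had a mean count above 10 in every comparison, so none was lost to the filter on low counts.

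Endocannabinoids are lipid messengers that neurons release from the postsynaptic side and that travel back to the presynaptic terminal, where the CB1 receptor encoded by *Cnr1* lowers transmitter release. 2-arachidonoylglycerol is made by the diacylglycerol lipases and removed mainly by monoacylglycerol lipase, whereas anandamide can be made by NAPE-PLD and is removed by fatty acid amide hydrolase. Striatal projection neurons, cholecystokinin interneurons and the parallel fibres of cerebellar granule cells are known to carry CB1, Purkinje cells are known for dense diacylglycerol lipase alpha, and loss of CB1 from the basal ganglia is a known early feature of Huntington's disease (HD).

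The study compared ribosome-bound RNA of defined neurons with total RNA of the same tissue in HD knock-in and control mice at 9 months of age. In the lines that the study's text describes, HD mice were *Hdh* Q7/Q200 and controls their *Hdh* Q7/Q7 littermates on a 129S4 background, and both were heterozygous for the RiboTag allele (an HA tag on the ribosomal protein Rpl22 that Cre recombination switches on) and for a Cre driver. The drivers were Gad2-IRES-Cre (GABA neurons), PV-IRES-Cre (parvalbumin neurons) and vGluT2-IRES-Cre (neurons that express, or expressed earlier in life, the vesicular glutamate transporter *Slc17a6*), and a driver labelled SST (somatostatin) that the study's text does not describe. HA immunoprecipitates (IPs) and total RNA came from 1 hemisphere of the cerebrum, taken without the olfactory bulb, or of the cerebellum, and for PV mice the IP was done in duplicate and pooled. The 106 libraries (67 IP, 39 total RNA) came from 45 mice, and some mice gave several libraries. IPs numbered 6 control and 6 HD for cerebral Gad2, 6 and 5 for PV, 5 and 4 for SST, 6 and 6 for cerebral vGluT2, 6 and 6 for cerebellar Gad2, and 5 and 6 for cerebellar vGluT2. Total RNA came from 3 control and 3 HD mice for each line and region, except for SST (4 and 3) and cerebellar vGluT2 (4 and 4). Total counts per library ran from 23256806 to 107753596 (median 35874524) in IPs and from 21905238 to 62160034 (median 35858945) in total RNA. In the SST line, 3 of the 5 control IPs came from mice whose identifiers belong to another series (Z) than those of the HD mice (BR). The paper states that 3 libraries failed at first and were sequenced again with longer reads. By their labels all 3 were HD IPs, of cerebellar Gad2, PV and cerebral vGluT2.

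The labels of the libraries were compared with cell type markers in controls. *Gad1*, which makes GABA, stood at 1521 CPM (counts scaled to a common library total, with TMM factors) in cerebral Gad2 IPs, 1774 in PV IPs and 1930 in cerebellar Gad2 IPs, against 48.7 in cerebral and 143 in cerebellar vGluT2 IPs. *Pvalb* averaged 615 CPM in PV IPs and 100 in total RNA of that line, and *Sst* 1326 CPM in SST IPs and 135 in total RNA. *Slc17a6* itself was low: it averaged 114 CPM in cerebral vGluT2 IPs, 117 in PV IPs and 106 in SST IPs, and 45 CPM (SD 37.2, n = 5) in cerebellar vGluT2 IPs, where its ratio to total RNA did not pass the test. The vGluT2 IPs carried the related transporter *Slc17a7* at 2061 CPM (cerebrum) and 1361 CPM (cerebellum). It also stood at 830 CPM in PV IPs, 785 in SST IPs and 221 in cerebral Gad2 IPs. Cerebral total RNA held means of 1366 (Gad2 line) to 1902 CPM (PV line). In cerebellar vGluT2 IPs 5 of 5 granule cell markers were higher than in total RNA (median log2 ratio 1.06), and in cerebellar Gad2 IPs 5 of 5 Purkinje cell markers were (median 2.03). Oligodendrocyte markers were lower than in total RNA in each of the 6 IPs by their median (−1.12 in SST IPs to −3.73 in cerebral vGluT2 IPs), with 1 of 6 of these markers higher in SST IPs. Astrocyte markers were not lower by their sum in cerebellar Gad2 IPs (5407 CPM against 4979 in total RNA of that line), where 5 of 6 were lower and *Aldoc* was higher (1.03, SE 0.129).

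*Cnr1* (ENSMUSG00000044288.6) lies on chromosome 4 from 33924593 to 33948831 of GRCm38, on the + strand, and no other annotated gene overlaps it. In control IPs its level was highest in the cerebellum, with 654 ± 130 CPM (SD, n = 6) in Gad2 IPs. Cerebellar vGluT2 IPs came next at 633 ± 88.5 CPM (n = 5). Cerebral Gad2 IPs held 288 ± 47.9 CPM (n = 6), followed by SST IPs at 128 ± 26.5 (n = 5), vGluT2 IPs at 90.8 ± 21.9 (n = 6) and PV IPs at 86.6 ± 21.4 (n = 6). The order was thus both cerebellar IPs, cerebral Gad2, SST, and then cerebral vGluT2 and PV, and neither the first pair (adjusted p = 0.982) nor the last pair (adjusted p = 0.951) differed by the edgeR test across all genes, in which a difference counts as called at an adjusted p of 0.05 or less. SST IPs lay above PV IPs by 0.57 on the log2 scale (SE 0.182, adjusted p = 0.0291), a call lost in 9 of the refits that leave out 1 library and with the share of long transcripts (defined below with the total RNA results) as a covariate (0.44, adjusted p = 0.0583).

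In control total RNA, *Cnr1* averaged 70 ± 33.5 CPM in the cerebrum (n = 13, lowest 19.6, median 69.4, highest 145). In the cerebellum it averaged 402 ± 131 CPM (n = 7, lowest 236, median 431, highest 577). No cerebral library reached the lowest cerebellar one. The test between regions compared the Gad2 and vGluT2 lines only, and mice that gave both regions were not blocked. In it the cerebellar level was higher by a log2 difference of 2.51 (SE 0.424, adjusted p = 7.71e-05), which was 1.46 (adjusted p = 0.000282) with that covariate. Of the 7 genes, 5 differed between the regions in total RNA, beside 59.7% of all tested genes, so the count itself is no result about the members. *Cnr1* and *Abhd6* (0.32, SE 0.0858, adjusted p = 0.00408) were the called members with more RNA in the cerebellum. *Daglb* (−0.50), *Mgll* (−1.06) and *Faah* (−1.25) had more in the cerebrum.

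**Figure D1:**
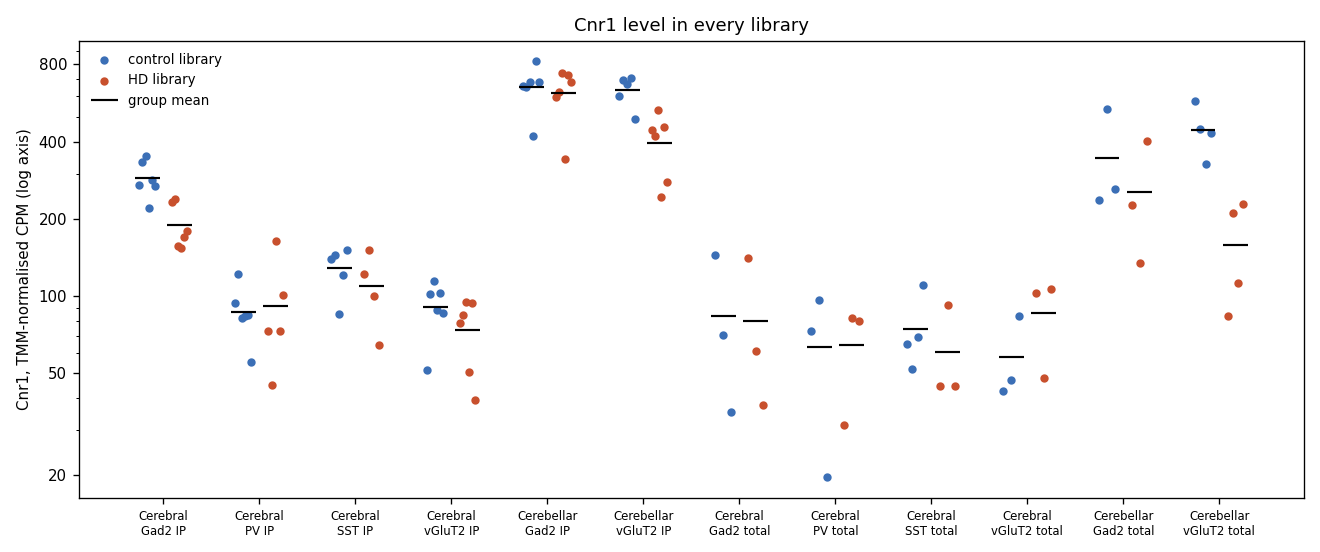
*Cnr1* level in each library, in CPM on a log axis, by IP and total RNA group, with control and HD libraries in different colours and a bar at each group mean. Among control groups, the cerebellar ones have the highest means. HD libraries of the cerebellar vGluT2 IP span 244 to 532 CPM against 492 to 706 in controls, and HD total RNA of the cerebellar vGluT2 line spans 83.4 to 229 CPM against 328 to 577.

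Compared with total RNA of the same region, *Cnr1* RNA was concentrated in cerebral Gad2 IPs, with a log2 ratio of 2.02 (SE 0.297, adjusted p = 6.85e-06). All 6 of these IPs, at 221 to 353 CPM, lay above all 13 cerebral total RNA libraries. In the same comparison *Dagla*, *Daglb*, *Mgll* and *Faah* were lower in the IP, so that 5 of 7 members were called beside 62.6% of all genes. Over the other processing choices the *Daglb* ratio ran from −0.84 to −0.46, with an adjusted p of up to 0.252. In cerebellar Gad2 IPs *Cnr1* was higher than in total RNA by 0.64 (SE 0.208, adjusted p = 0.0156), or 1.17 (adjusted p = 1.9e-05) with libraries of both genotypes, and there 4 of 7 members were called beside 57.1% of all genes. Cerebellar vGluT2 IPs gave *Cnr1* a ratio of 0.50 (SE 0.21) that missed the threshold (adjusted p = 0.0536). There too 4 of 7 members were called, beside 56.7% of all genes. This *Cnr1* ratio passed with DESeq2 (0.56, adjusted p = 0.0223), with its size factors (0.56, 0.0384), without the filter (0.57, 0.0281), with the share of long transcripts as a covariate (0.50, 0.00767) and with libraries of both genotypes (0.72, 0.0048). It did not pass with total RNA of the same line (0.34, adjusted p = 0.0867) or in the mice with both libraries, with the mouse as a block (0.39, adjusted p = 0.0579). Of the edgeR refits without 1 library it passed in 4, at 0.57 to 0.61.

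Among the other cerebral IPs, *Cnr1* in SST IPs exceeded total RNA by 0.97 (SE 0.322, adjusted p = 0.0133), and 5 of 7 members were called beside 61.9% of all genes. In PV IPs 5 of 7 were called beside 69.2%, and *Cnr1* was not among them (0.39, SE 0.316, adjusted p = 0.272). In cerebral vGluT2 IPs 4 of 7 were called beside 64%, again without *Cnr1* (0.34, SE 0.319, adjusted p = 0.365). In all 6 IPs the members' counts are close to what all genes gave. The PV and SST ratios share a further difference: long transcripts took 26.4 to 30.6% of counts in PV IPs and 26.5 to 33.9% in SST IPs, but 15.5 to 25.8% in control cerebral total RNA. These ranges do not overlap, so the share and the step from total RNA to PV or SST IPs cannot be told apart. With the share as a covariate, *Cnr1* in SST IPs stood at −0.57 (adjusted p = 0.448), and 0 of 7 members were called there beside 11.3% of all genes and 2 of 7 in PV IPs beside 42.5%, which says nothing for or against these ratios. The same holds for all later values of PV and SST ratios with the covariate, and for PV or SST IPs against cerebral Gad2 IPs (19.8 to 24.4%) and vGluT2 IPs (19.9 to 25.8%). In the 3 control mice per IP that gave both libraries, with the mouse as a block, 2 of 7 were called in cerebral Gad2 IPs beside 16.8% and 3 of 7 in SST IPs beside 43%. The same libraries without the block (chosen after seeing the data) called 1 of 7 beside 14% and 3 of 7 beside 36.4%, so the counts were as low with the fewer libraries alone. *Cnr1* in cerebral Gad2 IPs was among the calls lost without the block (1.56, adjusted p = 0.0668) and kept with it.

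Between control IPs, 8 of 9 comparisons gave member counts read against backgrounds over 30%, so the sizes matter more than the counts. Cerebellar minus cerebral Gad2 IPs called 5 of 7 members beside 55% of all genes, with *Cnr1* at 1.11 (SE 0.175, adjusted p = 1.64e-06). Cerebellar minus cerebral vGluT2 IPs called 5 of 7 beside 63.7%, and *Cnr1* differed by 2.82 (SE 0.19, adjusted p = 6.29e-15), the widest difference of a member that was higher in the cerebellum. Within the cerebellum, vGluT2 minus Gad2 IPs called 5 of 7 beside 58.7%, and *Cnr1* was not one of them (−0.01, SE 0.182). The test thus did not separate the *Cnr1* levels of cerebellar vGluT2 and Gad2 IPs.

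Within the cerebrum, *Cnr1* set Gad2 IPs apart from each of the others. PV minus Gad2 IPs gave −1.70 (SE 0.178, adjusted p = 2.3e-09) for *Cnr1*, with 5 of 7 members called beside 53.4% of all genes. SST minus Gad2 gave −1.13 (SE 0.186, adjusted p = 6.96e-06), with 5 of 7 beside 53.5%. vGluT2 minus Gad2 gave −1.72 (SE 0.178, adjusted p = 1.59e-09), with 5 of 7 beside 30.1%. All 6 Gad2 IPs lay above all 17 libraries of the other cerebral control IPs in *Cnr1*. SST minus PV called 3 of 7 beside 14.7%, vGluT2 minus PV called 3 of 7 beside 58.8%, and vGluT2 minus SST called 4 of 7 beside 56.6%, the last with *Cnr1* at −0.58 (SE 0.182, adjusted p = 0.00669), and at −0.12 (adjusted p = 0.686) with the share of long transcripts as a covariate, where the shares do not overlap.

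*Dagla*, the lipase that makes most 2-arachidonoylglycerol at synapses of the adult brain, is ENSMUSG00000035735.10 on chromosome 19 from 10245265 to 10304877, on the − strand, and an antisense gene (AC132148.1) overlaps it. Its level was highest in cerebellar Gad2 IPs (lowest 257, median 310, highest 425 CPM, n = 6) and lowest in cerebellar vGluT2 IPs, where the 5 libraries held 28.6, 39.6, 22.4, 32.9 and 33.8 CPM. These groups are far apart, with no library of one near the other. The vGluT2 minus Gad2 difference within the cerebellum was −3.32 (SE 0.162, adjusted p = 3.4e-18), the widest of any member in any comparison of control IPs. Against cerebellar total RNA, *Dagla* was higher in Gad2 IPs (1.17, SE 0.137, adjusted p = 2.32e-06) and lower in vGluT2 IPs (−2.27, SE 0.155, adjusted p = 1.32e-08).

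In the cerebrum *Dagla* spanned a narrow range of means: 103 ± 11.4 CPM in PV IPs (n = 6), 102 ± 11.5 in vGluT2 IPs (n = 6), 92.5 ± 13.8 in SST IPs (n = 5) and 70.9 ± 12 in Gad2 IPs (n = 6). The first 3 of these did not differ from each other by the test (adjusted p from 0.531 to 0.722), and Gad2 IPs lay below each of them (for SST IPs, adjusted p = 0.327 with the share of long transcripts as a covariate, where the shares do not overlap). Control total RNA held 120 ± 21.5 CPM in the cerebrum (n = 13) and 138 ± 21.3 CPM in the cerebellum (n = 7). Between regions in the Gad2 and vGluT2 lines, the difference missed the threshold (0.24, adjusted p = 0.0617). Cerebral Gad2 IPs were below total RNA by −0.75 (SE 0.111, adjusted p = 7.33e-06), and by −0.58 (adjusted p = 0.067) in the 3 mice with both libraries, with the mouse as a block. In cerebral Gad2 IPs, where *Cnr1* was concentrated, the lipase *Dagla* was thus depleted, and in cerebellar Gad2 IPs both were higher than in total RNA.

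*Daglb*, the second diacylglycerol lipase, is ENSMUSG00000039206.13 on chromosome 5 from 143464584 to 143505942, on the + strand, and the protein-coding gene *Rac1* overlaps it on the opposite strand. Its IP level was highest in the vGluT2 lines, at 67.8 ± 8.51 CPM in the cerebrum (n = 6) and 58.4 ± 6.26 in the cerebellum (n = 5), which edgeR did not separate (−0.20, adjusted p = 0.179) and DESeq2 did (−0.29, adjusted p = 0.0389). The other IPs lay close together: 43.4 ± 3.5 CPM in cerebellar Gad2 (n = 6), 41.8 ± 6.07 in SST (n = 5), 41.2 ± 3.63 in PV (n = 6) and 36.6 ± 9.29 in cerebral Gad2 IPs (n = 6). None of the tested pairs among these 4 was called by edgeR, and DESeq2 called SST above cerebral Gad2 IPs (adjusted p = 0.0347). Cerebral vGluT2 IPs exceeded Gad2 IPs by 0.85 (SE 0.125, adjusted p = 1.54e-06) and PV IPs by 0.66 (SE 0.125, adjusted p = 3.87e-05). Control total RNA averaged 64.1 ± 10.5 CPM in the cerebrum (n = 13) and 42.6 ± 5.72 in the cerebellum (n = 7).

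*Napepld*, a phospholipase that releases anandamide and related amides, is ENSMUSG00000044968.16 on chromosome 5 from 21662901 to 21701396, on the − strand, and a pseudogene (Gm15719) overlaps it. Its level was 21.8 ± 4.22 CPM in cerebral vGluT2 IPs (n = 6), 21.3 ± 4.48 in SST IPs (n = 5) and 21 ± 1.81 in PV IPs (n = 6), with no called difference among these 3. Cerebellar vGluT2 IPs held 14.5 ± 1.78 CPM (n = 5). The Gad2 IPs of both regions were lowest, at 10.2 ± 1.48 CPM in the cerebrum and 8.34 ± 1.16 in the cerebellum (n = 6 each). The call of this pair (−0.35, adjusted p = 0.0244) was lost with DESeq2 (−0.31, adjusted p = 0.0514), its size factors and no filter on low counts. It was also lost with the mouse as a block (−0.30, adjusted p = 0.181). PV IPs exceeded cerebral Gad2 IPs by 1.07 (SE 0.133, adjusted p = 6e-08), and all 6 PV libraries (19.3 to 24.1 CPM) lay above all 6 Gad2 libraries (8.47 to 12 CPM). Against total RNA, *Napepld* was higher in PV (0.93), SST (0.97) and cerebral vGluT2 IPs (0.86) and in cerebellar vGluT2 IPs (0.45), the last not called with total RNA of the same line (0.34, adjusted p = 0.064). With the share of long transcripts as a covariate, which cannot be told apart from these IPs, the PV ratio was 0.12 (adjusted p = 0.478) and the SST ratio −0.03 (adjusted p = 0.923).

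*Mgll*, the lipase that removes most 2-arachidonoylglycerol in the brain, is ENSMUSG00000033174.17 on chromosome 6 from 88724412 to 88828360, on the + strand, overlapped by the antisense gene Gm26588 and 4 loci of the class TEC. It was low in cerebellar Gad2 IPs (lowest 30.4, median 38.3, highest 41.9 CPM, n = 6). The 5 cerebellar vGluT2 IPs held 185, 105, 160, 165 and 133 CPM, each more than any Gad2 library. The difference was 2.03 (SE 0.126, adjusted p = 1.37e-15), so *Mgll* was high where *Dagla* was low and the reverse. The remaining IPs held 186 ± 17 CPM in SST (n = 5), 145 ± 22.3 in cerebral vGluT2, 141 ± 16 in cerebral Gad2 and 133 ± 19.7 in PV (n = 6 each), of which the last 3 did not differ by the test. Total RNA held 254 ± 57.2 CPM in the cerebrum (n = 13) and 124 ± 24.3 in the cerebellum (n = 7). *Mgll* was lower than total RNA in cerebral Gad2 (−0.84), PV (−0.81), SST (−0.32) and vGluT2 IPs (−0.81) and in cerebellar Gad2 IPs (−1.79, SE 0.139, adjusted p = 2.59e-08). Its ratio in cerebellar vGluT2 IPs was 0.13 and was not called, and the call in cerebral Gad2 IPs was lost in the 3 mice with both libraries, with the mouse as a block (−0.62, adjusted p = 0.088). The SST call was lost in 10 refits without 1 library and with total RNA of the SST line alone (−0.18, adjusted p = 0.313) and in the mice with both libraries, with the mouse as a block (−0.11, adjusted p = 0.64). With the share of long transcripts as a covariate, not to be told apart from these IPs, the PV ratio was −0.46 (adjusted p = 0.0869) and the SST ratio 0.15 (adjusted p = 0.717).

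*Faah*, which hydrolyses anandamide, is ENSMUSG00000034171.13 on chromosome 4 from 115967145 to 116017926, on the − strand, with no overlapping gene. Cerebral vGluT2 IPs held the most, 139 ± 14.5 CPM (lowest 122, median 135, highest 162, n = 6). SST IPs followed at 76.6 ± 12 (n = 5) and PV IPs at 73.8 ± 8.73 (n = 6), a pair the test did not separate (adjusted p = 0.731). Cerebellar vGluT2 IPs held 61.9 ± 5.95 (n = 5), cerebellar Gad2 IPs 47.1 ± 5.88 and cerebral Gad2 IPs 45.2 ± 4.52 CPM (n = 6 each), the last pair again not separated (adjusted p = 0.96). Every cerebral vGluT2 library was above every other control IP library, whose highest value was 97.3 CPM in an SST IP. The vGluT2 minus Gad2 difference in the cerebrum was 1.57 (SE 0.1, adjusted p = 1.46e-14), opposite in direction to that of *Cnr1*. Against total RNA (102 ± 18.3 CPM in the cerebrum, n = 13; 40.8 ± 7.37 in the cerebellum, n = 7), *Faah* was lower in cerebral Gad2 IPs (−1.16, SE 0.1, adjusted p = 5.11e-09) and higher in the vGluT2 IPs of the cerebrum (0.43, SE 0.0897, adjusted p = 0.000282) and the cerebellum (0.46, SE 0.116, adjusted p = 0.00328). The cerebral vGluT2 ratio was 0.29 (adjusted p = 0.077) against total RNA of its own line alone and also 0.29 (adjusted p = 0.113) in the 3 mice with both libraries, with the mouse as a block. *Faah* was lower than total RNA in PV (−0.35, adjusted p = 0.00281) and SST IPs (−0.28, adjusted p = 0.0415) too. These ratios stood at 0.14 (adjusted p = 0.359) and 0.31 (adjusted p = 0.263) with the covariate that cannot be told apart from these IPs. The mice with both libraries, with the mouse as a block, gave no call in either (adjusted p = 0.11 and 0.116), nor did total RNA of the same line for SST (adjusted p = 0.125).

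*Abhd6*, a serine hydrolase that also degrades 2-arachidonoylglycerol, is ENSMUSG00000025277.14 on chromosome 14 from 8002902 to 8056763, on the + strand, with no overlapping gene. Its means ran from 79.2 ± 8.19 CPM in cerebellar Gad2 IPs (n = 6) over 71.1 ± 8.15 in cerebellar vGluT2 (n = 5), 68.7 ± 4.79 in PV (n = 6), 52.5 ± 6.99 in cerebral vGluT2 (n = 6) and 47.4 ± 6.52 in cerebral Gad2 (n = 6) to 44.5 ± 4.19 in SST IPs (n = 5). The pair of cerebellar IPs did not differ (adjusted p = 0.328), nor did the last 3 groups by their tests (adjusted p from 0.178 to 0.665), and PV against the cerebellar groups was not tested. PV IPs stood above the other cerebral IPs, with log2 differences of 0.56 to Gad2 IPs (SE 0.0967, adjusted p = 1.33e-05) and of 0.66 to total RNA (SE 0.0624, adjusted p = 1.55e-08). Total RNA averaged 47.2 ± 5.1 CPM in the cerebrum (n = 13) and 56.7 ± 8.68 in the cerebellum (n = 7).

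**Figure D2:**
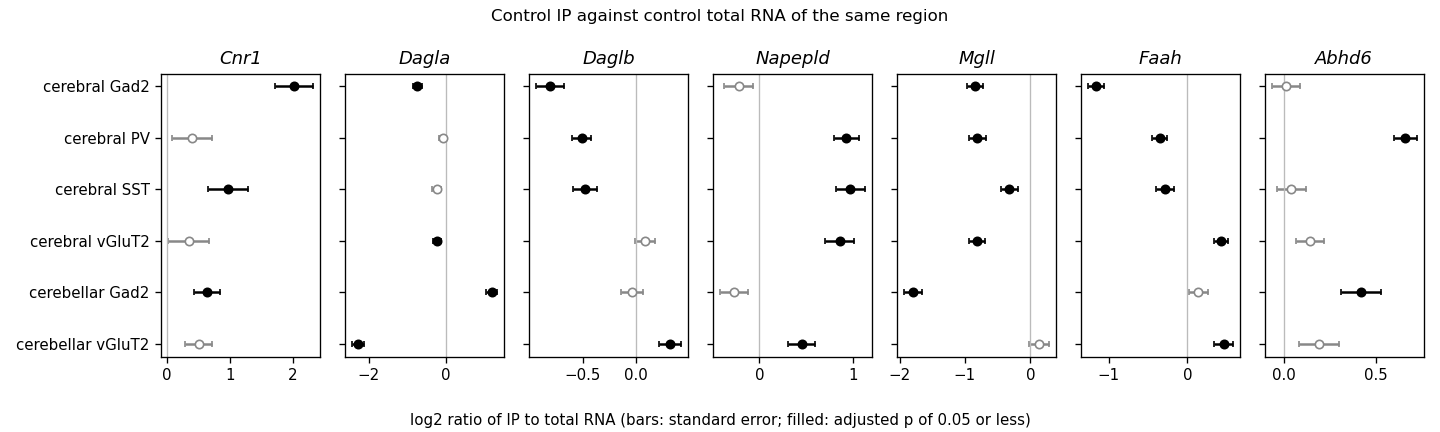
Log2 ratio of control IP to control total RNA of the same region (x axis) for each of the 7 genes in the 6 IPs, with bars of 1 SE and filled points where the adjusted p was at most 0.05. *Cnr1* lies at 2.02 in cerebral Gad2 IPs, and *Dagla* lies at 1.17 in the Gad2 and −2.27 in the vGluT2 IPs of the cerebellum.

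Levels of different genes were compared per kilobase of exon union. *Cnr1* was the highest of the 7 in Gad2 IPs of the cerebrum (44.8 CPM per kilobase) and of the cerebellum (101), in cerebellar vGluT2 IPs (98.2) and in both cerebellar total RNA groups (53.4 and 69.2). *Mgll* was the highest in SST IPs (36.6) and cerebral vGluT2 IPs (28.6) and in the 4 cerebral total RNA groups (44.6 to 59.5). In PV IPs *Abhd6* led with 29 CPM per kilobase, whereas *Mgll* led there when the longest transcript was used as the length (33.4). *Napepld* was the lowest by its longest transcript in PV and SST IPs as in most groups, and by the exon union *Daglb* was lower there (4.3 and 4.37).

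Patterns of level across the 12 control groups (6 IP, 6 total RNA) were compared by Pearson's r on log2(CPM + 1), averaged per group, over 13441 genes, as a description, since IP and total RNA groups share mice and tissue. *Cnr1* was most alike *Galnt13* (r = 0.986), *Pcdhb14* (0.972) and *Rps6ka5* (0.972), with r of 0.978, 0.903 and 0.926 over the 12 HD groups. *Dagla* was most alike *Tmem184b* (0.975), *Fam174b* (0.957) and *Spns2* (0.949), and *Mgll* was most alike *Bcl9* (0.988), *Fam19a5* (0.966) and *Ttyh3* (0.963). *Faah* came closest to *Jdp2* (0.969), *Rapgefl1* (0.967) and *Nptxr* (0.946), and *Daglb* to *Camta2* (0.944), *Apbb1* (0.933) and *Mnt* (0.927, but 0.562 over HD groups). For *Napepld* near genes were *Ntng1* (0.931) and *6030458C11Rik* (0.929), and for *Abhd6* the nearest were *Polr3c* (0.956), *Tmem25* (0.934) and *Zfp629* (0.925). Between members, *Cnr1* ran against *Faah* (r = −0.846) and *Mgll* (−0.757), *Abhd6* against *Mgll* (−0.752), and *Daglb* ran with *Faah* (0.817, but 0.389 over HD groups).

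The comparison of HD with control IPs asked which changes each neuron type carries. None of the 7 members was called in any of the 6 IPs by edgeR. In cerebral Gad2 IPs 0 of 7 were called beside 0.0279% of all genes, in PV IPs 0 of 7 beside 0.034%, in SST IPs 0 of 7 beside 0%, in cerebral vGluT2 IPs 0 of 7 beside 0.00697%, in cerebellar Gad2 IPs 0 of 7 beside 0.0142%, and in cerebellar vGluT2 IPs 0 of 7 beside 2.11%. With so few genes called in 5 of the 6 IPs, a count of 0 is the background level. At an unadjusted p under 0.05 stood 1 member in cerebral Gad2 IPs (*Cnr1*), 1 in cerebral vGluT2 IPs (*Napepld*) and 1 in cerebellar vGluT2 IPs (*Cnr1*), and 0 in the other 3. Of all genes, 9.15%, 7.28% and 15.5% stood there in these 3 IPs, so 1 of 7 is close to the background. DESeq2 called 1 member in cerebral Gad2 IPs, beside 0.523% of all genes, and 1 in cerebellar vGluT2 IPs, beside 4.93%, each time *Cnr1*, and 0 in the other 4.

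*Cnr1* in cerebral Gad2 IPs ran from 221 over a median of 277 to 353 CPM in 6 controls. In 6 HD mice it ran from 154 over 174 to 238 CPM. HD libraries were lower, 4 of 6 below the lowest control, and the other 2 lay between the lowest control and the next. The log2 difference was −0.64 (SE 0.154, unadjusted p = 0.00096, adjusted p = 0.265 with edgeR), and over the other processing choices the adjusted p ranged from 0.0329 (DESeq2) to 0.292. Markers of striatal projection neurons, which are GABA neurons of the cerebrum, moved with it: their summed level was 5627 ± 612 CPM in controls (n = 6, lowest 4720, highest 6334) and 3683 ± 799 in HD (n = 6, lowest 2751, highest 4805), with *Ppp1r1b* the most abundant and no marker at 0. Of these 8 markers edgeR called 0, 7 had an unadjusted p under 0.05, DESeq2 called 4, and their median log2 difference was −0.57. Their lower sum was not particular to Gad2 IPs. In control and HD means it was 370 and 278 CPM in PV, 596 and 455 in SST, and 396 and 289 in cerebral vGluT2 IPs. A list for cholecystokinin interneurons (*Cck*, *Vip* and *Htr3a*) summed to 221 CPM in controls and 168 in HD. Of these 3, edgeR called 0 and DESeq2 called 1. *Vip* was the most abundant in controls and *Cck* in HD. The list is not particular to those interneurons: it summed to 527 CPM in control cerebral vGluT2 IPs, with *Cck* the most abundant. The part of either cell type in the *Cnr1* difference was not tested. In such bulk samples, fewer cells of a type cannot be told apart from less RNA per cell.

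The 5 control cerebellar vGluT2 IPs held 601, 694, 673, 706 and 492 CPM of *Cnr1*. The 6 HD IPs ran from 244 over a median of 430 to 532 CPM. All but 1 HD library lay below the lowest control, and that library (HD replicate 3) lay between the lowest control and the next. The log2 difference was −0.65 (SE 0.173, unadjusted p = 0.00214, adjusted p = 0.0743 with edgeR), and without HD replicate 3 it was −0.74 and called (adjusted p = 0.0459). Over the other processing choices it stayed between −0.72 and −0.60, with adjusted p from 0.00831 (share of long transcripts as a covariate) to 0.206. The 5 granule cell markers moved with it: their sum was 11108 ± 1566 CPM in controls (n = 5, lowest 8483, highest 12692) and 6912 ± 644 in HD (n = 6, lowest 5897, highest 7802), with no overlap, *Cbln3* the most abundant and no marker at 0. Of these markers 3 of 5 were called, all lower (*Cbln1* −0.61, *Cbln3* −0.80, *Neurod1* −0.87), with a median of −0.61 close to the *Cnr1* value, and their part in it was not tested.

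In the other IPs the *Cnr1* levels of HD mice overlapped those of controls. PV IPs of 5 HD mice held 73.1, 45, 164, 72.7 and 101 CPM, against 55.1 to 122 (median 83.9) in 6 controls. In these HD IPs, Purkinje cell markers summed to 4416 CPM at most (median 623) and granule cell markers to 614 (median 81.6). The highest control sums were 1949 and 295, and the part of these markers in the *Cnr1* levels was not tested. SST IPs held 122, 151, 99.6 and 64.4 CPM in 4 HD mice, against 139, 144, 85.1, 121 and 151 in 5 controls. Cerebral vGluT2 IPs ran from 39.2 over 81.2 to 94.9 CPM in HD and from 51.5 over 94.7 to 114 in controls (n = 6 each). The HD library at 39.2 CPM had been sequenced again. Cerebellar Gad2 IPs ran from 343 over 655 to 742 CPM in HD and from 421 over 671 to 822 in controls (n = 6 each). No group stood apart, and the HD library below all controls in cerebellar Gad2 IPs (343 CPM) was replicate 4.

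Whether the *Cnr1* difference itself differed between neuron types was tested with interaction terms. For cerebellar vGluT2 minus cerebellar Gad2 IPs the *Cnr1* value was −0.63 (SE 0.333, unadjusted p = 0.0612, adjusted p = 0.582), with 0 of 7 members called beside 0.492% of all genes. For cerebellar minus cerebral vGluT2 IPs it was −0.38 (SE 0.333, adjusted p = 0.88), with 0 of 7 beside 0.594%, and −0.69 (adjusted p = 0.227) with the share of long transcripts as a covariate. For cerebellar minus cerebral Gad2 IPs it was 0.55 (SE 0.325, adjusted p = 0.769), with 0 of 7 beside 0.0478%. For PV minus cerebral Gad2 IPs it was 0.66 (SE 0.333, adjusted p = 0.997), with 0 of 7 beside 0%, and for cerebral vGluT2 minus cerebral Gad2 IPs 0 of 7 were called beside 0%. All but 1 of the Gad2 and vGluT2 mice gave IPs of both regions, and in those that did, with the mouse as a block (chosen after seeing the data), the cerebellar minus cerebral *Cnr1* values were 0.53 (adjusted p = 0.701, 0 of 7 members beside 0% of all genes) for Gad2 and −0.33 (adjusted p = 0.648, 0 of 7 beside 0.217%) for vGluT2, and 0 of 7 were called in either line without the block. None of these tests showed a difference in *Cnr1* response between the neuron types. At an unadjusted p under 0.05 these 5 edgeR tests held 1 member, *Daglb* in the last (−0.37, adjusted p = 1), beside 8.99, 8.38, 6.64, 2.51 and 2.4% of all genes, and DESeq2 called 0 in each.

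Among the enzymes, *Napepld* in cerebral vGluT2 IPs ran from 15.2 over 21.8 to 27.9 CPM in controls and from 12 over 16.6 to 20 CPM in HD (n = 6 each). The HD library at 12 CPM had been sequenced again. The groups overlapped, with a log2 difference of −0.42 (SE 0.161, unadjusted p = 0.0217, adjusted p = 0.677). Over the other processing choices it ran from −0.41 to −0.24, with adjusted p from 0.317 to 1. *Dagla* in cerebellar Gad2 IPs ran from 257 over 310 to 425 CPM in controls and from 251 over 271 to 309 CPM in HD, at −0.28 (SE 0.134, unadjusted p = 0.0568, adjusted p = 1). Neither passed the test. *Daglb*, *Mgll*, *Faah* and *Abhd6* overlapped between HD and control in all 6 IPs.

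**Figure D3:**
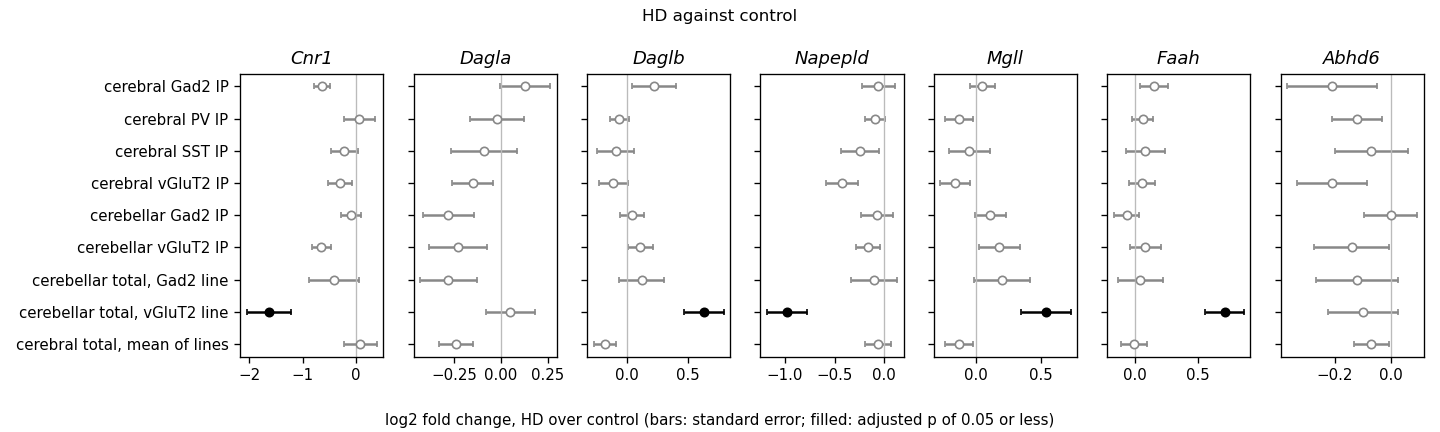
Log2 difference of HD minus control (x axis) for each of the 7 genes in the 6 IPs, in total RNA of both cerebellar lines and in the mean of the cerebral lines, with bars of 1 SE and filled points where the adjusted p was at most 0.05. The filled points lie in total RNA of the cerebellar vGluT2 line, where *Cnr1* is at −1.63 and *Faah* at 0.71.

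Total RNA of the cerebrum was compared within each line and as the mean over the 4 lines. In the Gad2 line 0 of 7 members were called beside 0% of all genes, in the PV line 0 of 7 beside 0.00672%, in the SST line 0 of 7 beside 0%, in the vGluT2 line 0 of 7 beside 0.00672%, and in the mean of lines 0 of 7 beside 0.497%. DESeq2 called 0 in each, and at an unadjusted p under 0.05 edgeR gave 0 members in the single lines and 1 in the mean of lines, *Dagla* at −0.24 (SE 0.0897, adjusted p = 0.489). Of all genes 0.793 to 4.47% stood there in the single lines and 6.71% in the mean of lines. In the vGluT2 line, the 3 controls held 117 to 152 CPM of *Dagla* and the 3 HD mice 87.1 to 110 CPM, without overlap (−0.36, adjusted p = 0.624). *Daglb* there held 62.1 to 78.2 CPM in controls and 40.6 to 60.6 in HD, also without overlap (−0.38, adjusted p = 0.624). Neither difference passed the test across all genes, and how many of all genes lacked overlap there was not counted. The share of long transcripts (defined below) was 17.8, 19.3 and 22.7% in these controls and 24.3, 19.9 and 23.2% in these HD libraries. Within this line *Dagla* (r = −0.90) and *Daglb* (r = −0.89) ran against that share. Over the other processing choices, with the share as a covariate among them, *Dagla* ran from −0.35 to −0.25 and *Daglb* from −0.38 to −0.24. *Cnr1* spread widely within cerebral groups, from 35.4 to 145 CPM among 3 Gad2-line controls and from 37.6 to 140 among 3 HD mice.

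That spread followed a measure of transcript length. The share of long transcripts is the percent of protein-coding counts on the 3950 genes whose longest transcript has at least 5000 bases, and it was added after seeing the data. It includes the counts of *Cnr1*, *Dagla* and *Faah* themselves. Across the 25 cerebral total RNA libraries, *Cnr1* level, as log2(CPM + 1), was higher with a higher share (Pearson's r = 0.82, Spearman's rho = 0.87, each with a two-sided permutation p = 1e-05, the smallest that the permutations can give). Without the 2 libraries farthest from the median share, r was 0.75, and within lines it was 0.97 (Gad2, n = 6), 0.79 (PV, n = 6), 0.68 (SST, n = 7) and 0.97 (vGluT2, n = 6). Over the 7 relations tested, 1 per member, the adjusted p for *Cnr1* was 2.33e-05 for both measures.

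The other members split by direction. *Napepld* also ran with the share of long transcripts (r = 0.84, rho = 0.79, permutation p = 1e-05 each, adjusted p = 2.33e-05, and 0.81 without the 2 farthest). *Faah* ran against it (r = −0.89, rho = −0.88, permutation p = 1e-05 each, adjusted p = 2.33e-05, and −0.83 without the 2 farthest). *Abhd6* (r = −0.75, rho = −0.74, permutation p = 3e-05 and 6e-05, adjusted 5.25e-05 and 0.000105) and *Daglb* (r = −0.74, rho = −0.64, permutation p = 5e-05 and 0.00076, adjusted 7e-05 and 0.00106) ran against it too, with −0.66 and −0.58 without the 2 farthest. For *Mgll* (r = −0.57, rho = −0.56, permutation p = 0.00305 and 0.00425, adjusted 0.00356 and 0.00496) r was −0.32 without the 2 farthest libraries, and for *Dagla* (r = −0.50, rho = −0.44, permutation p = 0.012 and 0.0295, adjusted the same) it was −0.22. Both pooled values thus depend on those 2 libraries, which are of the Gad2 line. Within the Gad2, PV, SST and vGluT2 lines r was −0.97, −0.54, 0.09 and −0.97 for *Mgll* and −0.92, −0.21, 0.28 and −0.90 for *Dagla*. Of the 3 members in the long set, *Cnr1* ran with the share and *Faah* and *Dagla* ran against it.

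**Figure D4:**
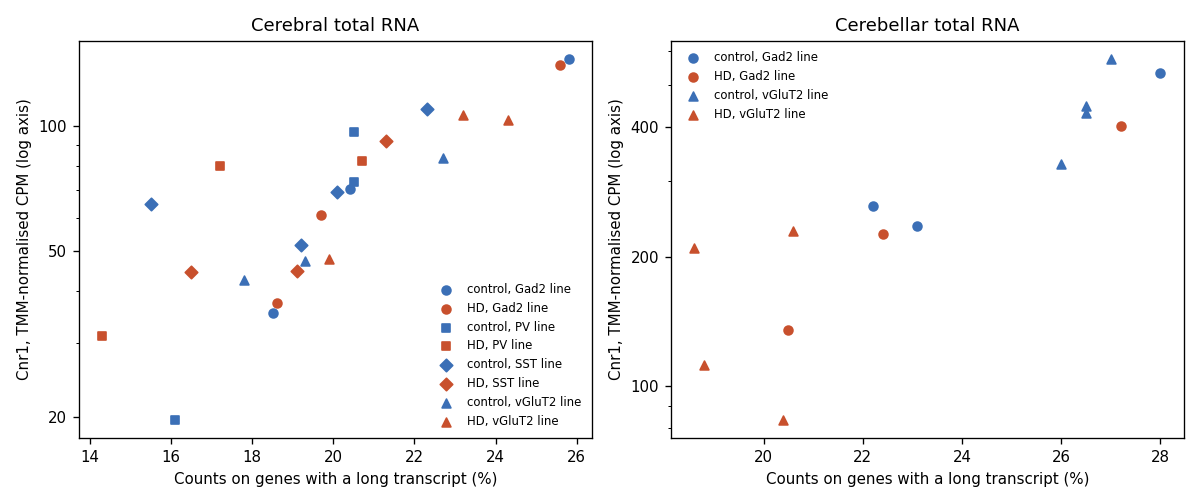
*Cnr1* level in CPM (log y axis) against the percent of protein-coding counts on long transcripts (x axis) in total RNA libraries of the cerebrum and the cerebellum, 1 point per library, coloured by genotype. Cerebral libraries rise from 19.6 to 145 CPM along the axis, and HD libraries of the cerebellar vGluT2 line sit at 18.6 to 20.6%, apart from their controls at 26 to 27%.

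Members were called for HD in total RNA of the cerebellum, in the vGluT2 line and in the mean of lines. The 4 controls of the vGluT2 line held 577, 447, 328 and 431 CPM of *Cnr1*. The 4 HD mice held 83.4, 210, 112 and 229 CPM. Each HD library lay below each control, and *Cnr1* fell by 1.63 on the log2 scale (SE 0.412, adjusted p = 0.00617). *Napepld* stood at 10.5, 8.6, 10.6 and 11.3 CPM in controls and at 3.93, 5.77, 7.41 and 5.79 in HD, again without overlap, with a log2 difference of −0.98 (SE 0.202, adjusted p = 0.00219). These were the members that fell.

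The other 3 called members rose in that line. *Faah* went from 34.6, 37.4, 41 and 33.7 CPM in controls to 80.9, 60.8, 64 and 56.9 in HD (0.71, SE 0.154, adjusted p = 0.00271). *Daglb* went from 37.6, 39, 44.8 and 34.9 CPM to 87, 55.3, 56.1 and 64.4 (0.63, SE 0.162, adjusted p = 0.00682). *Mgll* went from 121, 124, 130 and 81.6 CPM to 230, 156, 178 and 157 (0.54, SE 0.189, adjusted p = 0.0307). In all 3 every HD library was above every control, and the *Mgll* call was lost without control replicate 1 (0.56) or 4 (0.42) or HD replicate 1 (0.38). *Dagla* (0.05) and *Abhd6* (−0.10) overlapped between the groups and were not called. The 5 of 7 members called stand beside 48.8% of all genes called, so the count is no result about the members.

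The library groups of that line also differed in the share of long transcripts, which was 27, 26.5, 26 and 26.5% in controls and 20.4, 18.6, 18.8 and 20.6% in HD. Since these do not overlap, genotype and the share cannot be told apart there. The percent of counts on ribosomal protein genes did not overlap either, at 1.82, 1.73, 2.23 and 1.79% in controls and 2.34, 3.25, 3.68 and 2.72% in HD. With the share as a covariate, 0 of 7 members were called, and *Cnr1* stood at −0.06 (adjusted p = 0.964), *Napepld* at −0.62 (0.387), *Faah* at 0.38 (0.449), *Daglb* at 0.50 (0.388) and *Mgll* at 0.09 (0.912). The relations of members to the share, seen across cerebral total RNA, were not tested in these cerebellar libraries. Cell type markers moved in the same libraries: Purkinje cell markers summed to 4665 CPM in controls and 2924 in HD (3 of 5 called, all lower, *Itpr1* the most abundant), and granule cell markers to 4664 and 3880 (2 of 5, lower, *Cbln3*). Other neuronal markers moved both ways: *Slc17a7* rose from 600 (432 to 742) to 1288 CPM (1229 to 1387), called, and the parvalbumin neuron list from 1526 to 2272 (1 of 3 called, higher, *Pvalb* the most abundant), whereas the GABA list went from 796 to 708 (2 of 3 called lower and 1 higher, *Gad1*). *Slc17a6* averaged 22 CPM in controls (6.46 to 61.3, median 10.1) and 6.29 CPM in HD (2.12 to 10.8, median 6.14). It was called lower, but the groups overlapped. Microglia markers summed to 84.2 and 140 CPM (3 of 6 called, all higher, *Csf1r*), oligodendrocyte markers to 4680 and 4076 (3 higher and 2 lower of 6, *Mbp*), and astrocyte markers to 4920 and 4826 (3 of 6 lower, *Aldoc*). No marker of these lists was at 0, and their part in the members' differences was not tested.

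In total RNA of the cerebellar Gad2 line 0 of 7 members were called beside 0.0484% of all genes, with 0 at an unadjusted p under 0.05 and 0 by DESeq2. *Cnr1* was 236, 534 and 262 CPM in controls and 226, 135 and 403 in HD, with overlap (−0.41, SE 0.464, adjusted p = 1), and without control replicate 2 the value had the opposite sign (0.13). The share of long transcripts overlapped too, at 23.1, 28 and 22.2% in controls and 22.4, 20.5 and 27.2% in HD. In both groups the library with the most *Cnr1* was the one with the highest share. Control and HD marker sums there were 4353 and 3390 CPM for Purkinje cells, 4858 and 3769 for granule cells and 783 and 665 for the GABA list. They were 4311 and 3263 for oligodendrocytes and 4979 and 4068 for astrocytes. For these lists every HD sum lay below every control sum. The parvalbumin list (1844 and 1721), *Slc17a7* (845 and 857) and microglia (94.2 and 99.7) overlapped. Their part in the members' values was not tested. The mean of the 2 cerebellar lines called 4 of 7 members beside 27.6% of all genes, namely *Cnr1* (−1.02, SE 0.31, adjusted p = 0.0292), *Napepld* (−0.54, SE 0.154, adjusted p = 0.0232), *Faah* (0.38, SE 0.117, adjusted p = 0.0316) and *Daglb* (0.37, SE 0.123, adjusted p = 0.0387). That count was 0 without Gad2-line control replicate 2, HD replicate 1 or HD replicate 2, 1 without vGluT2-line control replicate 1, 2 without Gad2-line control replicate 1 or vGluT2-line control replicate 2 or 4, and 0 with the share of long transcripts as a covariate.

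A list of 40 further genes of endocannabinoid signalling was read in the same fits: receptors and partner proteins, enzymes of synthesis and breakdown, carriers, upstream receptors and effectors. In control cerebral Gad2 IPs against total RNA 25 of 35 tested were called (9 higher, 16 lower, median −0.16, beside a median of 0.02 and 62.6% called over all genes). That count was 13 beside 32.6% of all genes with total RNA of the same line, and in the 3 mice with both libraries 7 beside 16.8% with the mouse as a block and 6 beside 14% without it. *Grm5*, the glutamate receptor that drives 2-arachidonoylglycerol synthesis, was higher in the IP (1.73, SE 0.414), as was phospholipase *Plcb1* (1.48, SE 0.313), and *Abhd4*, of another anandamide route, was lower (−2.93, SE 0.189) and so was the fatty acid carrier *Fabp7* (−2.46, SE 0.441). Both of the higher genes lost their calls with total RNA of the same line (*Grm5* 1.31, adjusted p = 0.0946, *Plcb1* 1.10, adjusted p = 0.0782) and in the 3 mice with both libraries, with the mouse as a block (adjusted p = 0.0803 and, at 0.81, 0.123). *Fabp7* lost its call in those mice without the block (−2.29, adjusted p = 0.0591). PV IPs called 32 of 35 beside 69.2% of all genes (13 higher, 19 lower, median −0.24, all genes −0.01), with *Plcb4* (1.86) and the receptor-sorting gene *Gprasp1* (1.83) highest and *Fabp5* (−2.04) and *Abhd4* (−1.94) lowest. SST IPs called 29 of 35 beside 61.9% (14 higher, 15 lower, median −0.05, all genes −0.02), with *Plcb4* (1.93) and *Gprasp1* (1.93) highest and *Cnr2*, the receptor of immune cells, lowest (−1.87, SE 0.505). With the share of long transcripts as a covariate the counts were 18 in PV IPs beside 42.5% of all genes and 9 in SST IPs beside 11.3%. In the mice with both libraries they were 17 in SST IPs beside 43% with the mouse as a block and 16 beside 36.4% without it, and 18 in PV IPs beside 37.8% without it. With the block, 54.9% of all genes were called in PV IPs. The share cannot be told apart from these IPs, and with it *Plcb4* and *Gprasp1* stood, uncalled, at 0.34 and 0.35 in PV IPs (adjusted p = 0.302 and 0.297) and 0.09 and 0.13 in SST IPs (adjusted p = 0.886 and 0.846), as did *Cnr2* in SST IPs (−1.77, adjusted p = 0.274), also lost in the mice with both libraries (−1.21, adjusted p = 0.321, with the mouse as a block). Cerebral vGluT2 IPs called 28 of 35 beside 64% (16 higher, 12 lower, median 0.29, all genes 0.03), with *Plcb1* (1.73) and *Grm5* (1.41) highest and *Abhd4* (−3.40) and *Fabp7* (−2.85) lowest, and with the covariate *Grm5* was not called (0.45, adjusted p = 0.154). *Abhd4* and *Fabp7* were thus low in several neuron types at once.

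In the cerebellum, Gad2 IPs called 27 of 33 genes of that list beside 57.1% of all genes (16 higher, 11 lower, median 0.23). The phospholipase gene *Plcb3* (1.74, SE 0.2) was highest, and *Chrm1* (−3.15, SE 0.564) and *Fabp7* (−2.39) lowest, the *Chrm1* call being lost in the 3 mice with both libraries with the mouse as a block (−3.42, adjusted p = 0.0764) and without it. vGluT2 IPs called 17 of 33 beside 56.7% (6 higher, 11 lower, median −0.16), with the receptor partner *Cnrip1* (0.84, SE 0.102, adjusted p = 5.77e-06) and the G protein gene *Gnai1* (0.72) highest and *Fabp7* (−3.88) and *Abhd4* (−2.48) lowest. Both cerebellar medians stand beside all-gene medians of −0.02 and −0.01. *Dagla* and *Plcb3* were both higher in cerebellar Gad2 IPs than in total RNA.

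For HD, edgeR called 0 genes of the list in each of the 6 IPs, with medians from −0.08 (cerebral Gad2) to 0.01 and with 8 of 34 (cerebral Gad2), 4 of 34 (PV), 1 of 34 (SST), 5 of 34 (cerebral vGluT2), 1 of 32 (cerebellar Gad2) and 5 of 32 (cerebellar vGluT2) at an unadjusted p under 0.05. The shares of all genes there were, in the same order, 9.15, 4.28, 1.41, 7.28, 2.3 and 15.5%. In cerebellar vGluT2 IPs 3 of the list were called with the share of long transcripts as a covariate, beside 5.34% of all genes: *Gprasp1* (0.59, adjusted p = 0.0496), *Gnai1* (−0.53, adjusted p = 0.0496) and *Gnai2* (0.32, adjusted p = 0.0442). DESeq2 called 1, in cerebral vGluT2 IPs: *Chrm3*, a muscarinic receptor named after its values were seen, at 81 ± 5.01 CPM in controls and 57.2 ± 7.76 in HD (n = 6 each, no overlap, edgeR −0.50, adjusted p = 0.352, and 0.00528 to 0.504 over the other processing choices). In cerebral total RNA, the mean of lines called 1 of 35, *Adcy5*, the adenylyl cyclase of striatal neurons, at −0.38 (SE 0.0794, adjusted p = 0.0331). That call was lost in 14 of the 25 refits without 1 library, where the value ran from −0.43 to −0.35, and with the SST line left out (−0.43, adjusted p = 0.12). Markers of striatal projection neurons fell in the same comparison, 4 of 8 called with a median of −0.57, and their part in the *Adcy5* value was not tested.

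In cerebellar total RNA of the vGluT2 line 16 of 34 genes of the list were called for HD (8 higher, 8 lower, median −0.02, beside −0.00 and 48.8% called over all genes). *Plcb4*, the phospholipase of Purkinje cells, fell from 207 to 53 CPM (−2.09, SE 0.291, adjusted p = 0.000372). *Grm5* (−2.30, SE 0.597), *Plcb1* (−1.84, SE 0.35), *Gnai3* (−1.57, SE 0.392) and the CB1 partner *Sgip1* (−0.93, SE 0.167) also fell, and *Abhd4* rose from 80.7 to 172 CPM (0.97, SE 0.149, adjusted p = 0.000576). In the mean of the cerebellar lines 11 of 34 were called beside 27.6% of all genes (5 higher, 6 lower, median −0.07), among them *Grm5* (−1.32), *Plcb4* (−1.18), *Plcb1* (−1.06), *Gnai3* (−0.83), *Adcy1* (−0.72) and *Gnai2* (0.56). With the share of long transcripts as a covariate 0 genes of the list were called in either fit, and *Gnai3* turned to 0.18 and 0.16. In the mean of lines the call was lost in 11 refits without 1 library for *Gnai3* and in 9 for *Grm5*, and for *Gnai3* also without the filter (adjusted p = 0.0536) and with all gene types (adjusted p = 0.0545).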

How the data were processed

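The deposited values are estimated counts, made by the authors with STAR and Salmon in nf-core/rnaseq on GRCm38 (patch 6), and were rounded to whole counts. Of 55401 identifiers, 55141 matched GENCODE M21 without the version. Protein-coding genes with a mean count above 10 in the libraries compared were tested with edgeR 4.0.16 (quasi-likelihood, TMM) in R 4.3.3, with p-values adjusted over all genes tested and called at 0.05 or less. The SE is the absolute log2 difference divided by the square root of F. DESeq2 1.42.0 was the second tool. Tables were built in pandas 2.3.3 and numpy 2.4.6 under Python 3.11.15, and figures drawn by matplotlib 3.10.9. The edgeR test was tried on simulated counts with known differences for some of the comparisons, and the other steps were not.

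The members, lists and tests were chosen with earlier results of these data known. Named genes were the 3 most alike each member and, from the pathway list, the 2 highest and 2 lowest called ratios per IP and up to 6 called for HD; some of these are not reported here. Alternatives were DESeq2, its size factors, no filter on low counts, all gene types, a replicate block, the mouse as a block, total RNA of the same line, libraries of both genotypes, resequenced libraries or SST mice left out, each library left out, longest transcripts as lengths, likeness over IPs alone and, added after seeing the data, the share of long transcripts, the mouse as a block for HD effects between regions, and the mice of each block fit without the block.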

Additional observations from a re-analysis of the deposited data

Results flagged for a closer look

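Each member's highest and lowest library in each group of 4 or more was compared with the rest of its group by Dixon's test, and in 10 cases over 105 groups (210 ends compared) that library stood apart. Chance flags about 1 in 20 groups.

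*Cnr1* was 343 CPM in HD cerebellar Gad2 IP replicate 4, and *Daglb* was 55.7 CPM, its highest, in the same library. In HD cerebral vGluT2 IP replicate 1, *Dagla* was 124 CPM and *Daglb* 85.5 CPM, each the highest of 6. *Daglb* was 48 CPM in control PV IP replicate 6. *Napepld* was 28.9 CPM in control SST IP replicate 6, and *Mgll* was 245 CPM in HD SST IP replicate 4. *Faah* was highest in control cerebral Gad2 IP replicate 6 (54 CPM) and control SST IP replicate 3 (97.3 CPM), and lowest in control SST total RNA replicate 4 (81.4 CPM).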

How the results depend on the processing

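Of 118 called log2 differences, 117 kept direction and call with DESeq2, 117 with its size factors, 115 without the filter, 21 of 22 with all gene types and 77 with the share of long transcripts as a covariate (chosen after seeing the data), where 34 lost the call and 7 turned. Of 51 called ratios of IP to total RNA, 50 kept both with libraries of both genotypes, 44 with total RNA of the same line, 38 in the mice with both libraries with the mouse as a block, and 36 in those mice without the block (chosen after seeing the data). Of 10 called between regions 9 did in the same mice, with and without the block. The only one tested without the SST line lost its call. Over refits without 1 library, 2530 of 2635 kept both and 105 lost the call.

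Members called moved with DESeq2 to 1 in cerebral Gad2 IPs and 1 in cerebellar vGluT2 IPs (HD effect). With the share of long transcripts they moved to 1 in cerebellar vGluT2 IPs, 0 in cerebellar total RNA (vGluT2 line and mean of lines), and, against total RNA, 2 in PV and 0 in SST IPs. In the mice with both libraries they were 2 (cerebral Gad2) and 3 (SST) with the mouse as a block and 1 and 3 without it, and with total RNA of the same line 3 (SST). Without 1 library they ran from 0 to 1 (HD, cerebellar vGluT2 IPs), 0 to 5 (HD, mean of cerebellar lines) and 3 to 6 (SST IP against total RNA). The SST count was 3 without SST IP replicate 2, 4 or 6, Gad2-line total RNA replicate 2 or 3, or vGluT2-line total RNA replicate 2. With the share of long transcripts, *Faah* turned to 0.14 (PV) and 0.31 (SST), *Cnr1* to −0.57, *Napepld* to −0.03 and *Mgll* to 0.15 (SST), and *Gnai3* to 0.16 (mean of cerebellar lines) and 0.18 (vGluT2 line). *Cnr1* in total RNA of the cerebellar Gad2 line ran from −0.97 to 0.13 without 1 library. Of the 3 genes most alike each member, 0 remained over the 6 IPs alone for *Cnr1*, *Dagla*, *Daglb*, *Napepld*, *Faah* and *Abhd6*, and 1 for *Mgll*. The cause was not tested. The share does not overlap between PV or SST IPs and cerebral total RNA, nor between genotypes in total RNA of the cerebellar vGluT2 line, so it cannot be told apart from these comparisons.

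All genes called in cerebellar vGluT2 IPs for HD were 285, with DESeq2 665 and with the share of long transcripts 720. In total RNA of the cerebellar vGluT2 line they were 7067, with that share 40, and in the mean of cerebellar lines 3999 and 80. Against total RNA they were 9194 and 1684 (SST), 10267 and 6308 (PV), and 9260 for cerebral Gad2, where the 3 mice with both libraries gave 2494 with the mouse as a block and 2069 without it. No label says what a replicate number shares, and in no IP did every pair of HD and control libraries of 1 number deviate together, so the numbers were not taken as pairs. Closest was cerebral Gad2, where 4 of 6 HD libraries matched their own number best (r 0.577 to 0.624) and the others had −0.425 and −0.159. With a replicate block the genes called for HD were 9 in cerebral Gad2, 109 in cerebellar vGluT2 and 0 in the other 4 IPs, with 0 members called in all 6. In mice with both regions the genes called for HD between regions were 0 in place of 7 (Gad2) with and without the mouse as a block, and in place of 87 (vGluT2) 31 with it and 41 without. SST controls of the other identifier series left out, 0 of 7 members were called.

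Most groups hold 3 to 6 libraries, total RNA of a line as few as 3, and every member passed the filter in every comparison.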
